A study of Mus musculus with 4 samples.

Results

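Gzma-positive double-negative-like thymocytes are cells of the CD25+ sort gate that carried transcripts of Gzma, the gene of the serine protease granzyme A, while lacking those of Cd4 and of the T cell receptor alpha constant gene Trac. A cell was a member if it held at least 1 UMI (unique molecular identifier, the mark of 1 captured transcript) of Gzma, at least 1 of Il2ra, 0 of Cd4, 0 of Trac and fewer than 5 of Mki67. There were 5970 members, of which 3961 came from the PD-1 knockout-labelled CD25+ library and 2009 from the wild-type (WT) CD25+ library. They made up 5970 of the 13378 cells that met the rule whatever their Gzma count, of 18325 kept cells in the CD25+ libraries and of 23210 kept cells in all 4 libraries. The remaining 7408 rule-meeting cells, called Gzma-zero cells here, numbered 3615 in the knockout-labelled and 3793 in the WT library. Gzma, Il2ra, Cd4, Trac and Mki67 chose the cells, so their levels below are descriptions.

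The study asked how PD-1, an inhibitory receptor encoded by Pdcd1, bears on thymic regulatory T cells (Tregs). All mice were C57BL/6J aged 3 weeks and were either PD-1 knockout or WT by label, with the thymi of 4 animals pooled and CD8-bearing cells depleted before sorting. Per genotype, 1 library came from a CD4+ HSA+ CD25+ gate meant for Tregs and their progenitors and 1 from the corresponding CD25- gate for CD4 single-positive thymocytes, with CD73- also named in both gates. The labels give neither the allele nor the deleted part of Pdcd1. With 1 library per genotype and gate, every difference below compares libraries and has no replicate check, and pooling removed the spread between animals. No p-value is given, and intervals are exact 95% intervals that cover counting error only.

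In the thymus, double-negative cells carry neither CD4 nor CD8, pass through a stage bearing the interleukin-2 receptor alpha chain CD25 (Il2ra) and there rearrange the T cell receptor beta, gamma and delta genes. They rely on Rag1 and Rag2 for the cutting step, on Dntt (terminal deoxynucleotidyl transferase) for added junctional bases, on Notch signals and on Ptcra, the invariant partner of the new beta chain. Granzyme A is best known from the granules of cytotoxic T cells and natural killer (NK) cells, where perforin (Prf1) lets granzymes reach a target cell. The gate was set on CD4 protein, whereas the members were defined by having no Cd4 transcript, and protein on their surface was not measured here.

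Across the 4 libraries, 1767 to 10110 cells were kept, with 4621.5 to 6335 median UMIs per cell. The filter left out 50.6% of barcodes in the knockout-labelled CD25- library and 41.3% in the WT CD25- library, while 10110 of 10801 and 8215 of 8609 barcodes were kept in the knockout-labelled and WT CD25+ libraries. The CD25+ libraries shared 136 cell barcodes, and 10 barcodes were members in both. Pdcd1 transcripts were not lower in the library labelled knockout: members held 381 UMIs (11.4 CPM, UMIs scaled to a common total of all UMIs) in the knockout-labelled and 114 UMIs (6.92 CPM) in the WT library. Reads of this 5′ kit can lie outside a deleted part, so this does not check the label.

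Gzma lies on chromosome 13 from 113093825 to 113100981 on the minus strand (GRCm38, GENCODE vM21). Plac8, given with Dntt as a marker of these cells, encodes a small cysteine-rich protein and lies on chromosome 5 from 100553725 to 100572245 on the minus strand. The windows from 250 bases before to 50 bases after the RefSeq start of both genes (GRCm38.p6) are shown because the cells were chosen on Gzma and because Plac8 levels were followed across Gzma counts below. They are written 5′ to 3′ on the gene's strand, with matches to the RUNX core letters TGTGGT, here read on the other strand as ACCACA, in capitals.
Gzma, chr13:113100932-113101231: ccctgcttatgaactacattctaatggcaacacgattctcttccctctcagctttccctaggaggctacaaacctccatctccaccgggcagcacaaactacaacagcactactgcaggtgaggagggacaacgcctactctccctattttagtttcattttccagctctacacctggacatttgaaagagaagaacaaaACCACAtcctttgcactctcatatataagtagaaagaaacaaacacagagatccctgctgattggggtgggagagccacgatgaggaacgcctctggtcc
Plac8, chr5:100572156-100572455: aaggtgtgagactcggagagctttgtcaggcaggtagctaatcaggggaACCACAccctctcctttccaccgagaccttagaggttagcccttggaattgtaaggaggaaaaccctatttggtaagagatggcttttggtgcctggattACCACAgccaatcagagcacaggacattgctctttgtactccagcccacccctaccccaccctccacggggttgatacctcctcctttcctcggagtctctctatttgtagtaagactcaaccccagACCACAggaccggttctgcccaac
The Gzma window held 1 RUNX match and this Plac8 window 3, none overlapping. A window at another RefSeq start of Plac8 and the window of Dntt held 0, and 16.8% of 32851 mouse promoter windows of that length held at least 1 match on either strand. The Gzma window also held 3 matches to the E-box letters CANNTG, which 72.3% of windows contain, and none to TGGGAA (RBPJ), GGAAGT (ETS) or TTCNNNGAA (STAT5). A match is a description of letters and shows no binding.

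The members carried the transcripts of CD25-stage double-negative thymocytes, and so did the Gzma-zero cells. Ptcra stood at 560 CPM in knockout-labelled and 596 CPM in WT members, at 688 CPM in knockout-labelled and 653 CPM in WT Gzma-zero cells, and at 0.346 and 0.970 CPM in the knockout-labelled and WT CD25- libraries. Rag1 stood at 285 and 355 CPM in knockout-labelled and WT members, with 1.04 and 2.01 CPM in the knockout-labelled and WT CD25- libraries. Cd8a was at 0.360 and 0.425 CPM in knockout-labelled and WT members and Cd8b1 at 2.01 and 3.28 CPM, against 47.4 and 49.5 CPM of Cd8b1 in the knockout-labelled and WT CD25- libraries. Levels of Cd3g, a chain of the T cell receptor complex, were 2591 and 3380 CPM in knockout-labelled and WT members. The label was thus checked on Ptcra and Rag1, since the rule imposed the absence of Cd4 and CD8-bearing cells had been depleted before sorting.

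The given markers Plac8 and Dntt set rule-meeting cells apart from the CD25- libraries but set members apart from Gzma-zero cells much less. Plac8 was at 883 CPM in knockout-labelled members and 587 CPM in knockout-labelled Gzma-zero cells, a log2 ratio of 0.59, with a ratio between 1.47 and 1.54 by counting error, and at 719 CPM in WT members and 657 CPM in WT Gzma-zero cells, a ratio of 1.09 (1.07 to 1.12). Dntt was at 1159 and 904 CPM in members and Gzma-zero cells of the knockout-labelled library and at 1585 and 1409 CPM in those of the WT library. With Gzma-zero cells weighted to the members' UMIs per cell, the log2 ratio of Plac8 became 0.13 in the knockout-labelled and -0.16 in the WT library. The CD25- libraries had 10.6 and 13.0 CPM of Plac8 (knockout-labelled and WT).

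The other granzymes and perforin were nearly missing, while several other granule genes were present. Of the 14 granule genes listed, 5 in knockout-labelled and 6 in WT members were under 1 CPM, and 6 reached 20 CPM in each library. Gzmb, the granzyme that usually accompanies Gzma in killer cells, gave 1 UMI in knockout-labelled and 0 in WT members, where 3 counts would be 0.0900 and 0.182 CPM. Gzmc gave 0 UMIs in both, Gzmk 1 and 0, and Prf1 10 and 4 in knockout-labelled and WT members. Nkg7, a granule membrane protein, was at 150 CPM in knockout-labelled and 202 CPM in WT members and also at 126 and 199 CPM in knockout-labelled and WT Gzma-zero cells. In the knockout-labelled and WT CD25- libraries Nkg7 was at 5.02 and 9.22 CPM. Ctsc, which trims granzymes into active enzyme, stood at 49.1 and 57.7 CPM in knockout-labelled and WT members, Srgn, the proteoglycan that packs granules, at 351 and 376 CPM, and Lamp1, a general lysosome membrane protein, at 101 and 106 CPM. Of the 6 granule genes that reached 20 CPM, which also included Ctsw and Serpinb6b, 0 differed by 1.5-fold between members and Gzma-zero cells in either library. Over all genes, 1.36% did in the knockout-labelled and 0.598% in the WT library. A count of 0 among 6 is near these shares and shows nothing particular to granule genes.

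Most defining markers of other cell types were low, with exceptions given here. The double-positive thymocyte list summed to 2042 CPM in knockout-labelled and 2727 CPM in WT members, against 717 CPM in each CD25- library. In Gzma-zero cells it summed to 2333 and 2896 CPM (knockout-labelled and WT). The early progenitor list summed to 170 and 145 CPM in knockout-labelled and WT members. In the knockout-labelled and WT CD25- libraries it summed to 69.2 and 76.6 CPM. Of 17 NK and innate lymphoid genes, 10 in knockout-labelled and 11 in WT members were under 1 CPM, Ncr1, Klrd1, Klrk1, Klre1 and Klra8 were at 0 UMIs in both, and the summed level of the list was 57.4 CPM in knockout-labelled and 50.4 CPM in WT members, with 85.3 and 84.6 CPM in the Gzma-zero cells. Foxp3, the defining Treg factor, was at 1.71 and 2.43 CPM in knockout-labelled and WT members and at 15.1 and 18.8 CPM in knockout-labelled and WT Gzma-zero cells. The gamma-delta list had a summed level of 844 CPM in knockout-labelled and 1490 CPM in WT members, carried by Trdc and the Tcrg constant genes, while Il23r and Ccr6, genes of interleukin-17-producing gamma-delta cells, had 0 and 4 UMIs in knockout-labelled and 0 and 1 in WT members. Erythroid genes summed to 7.74 and 2.37 CPM, and Foxn1 and Pax5, defining factors of thymic epithelium and B cells, were at 0 in both. Of the stromal and epithelial list 8 of 10 genes and of the B cell list 7 of 9 were under 1 CPM in both sets of members, but Epcam, an adhesion protein of epithelium, stood at 224 and 193 CPM and Cd79b, a B cell receptor chain, at 84.4 and 91.2 CPM in knockout-labelled and WT members, close to their levels in Gzma-zero cells (223 and 189 CPM for Epcam, 86.1 and 88.0 CPM for Cd79b). Of the myeloid and dendritic list, 6 of 13 genes in knockout-labelled and 7 in WT members were under 1 CPM, but the list summed to 172 and 192 CPM, above the 139 and 120 CPM of the knockout-labelled and WT CD25- libraries, with Cst3, a widely expressed protease inhibitor gene, at 126 and 143 CPM.

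Gzma transcripts were more frequent in the knockout-labelled library. Members were 52.3% (51.2 to 53.4) of the 7576 rule-meeting cells in the knockout-labelled library and 34.6% (33.4 to 35.9) of the 5802 in the WT library, or 39.2% and 24.5% of all kept cells. After each cell was thinned to 1500 UMIs, Gzma was found in 21.5% (20.6 to 22.5) of the 7476 knockout-labelled cells left, against 12.5% (11.7 to 13.4) of the 5704 WT cells, with 100 and 98 shallower cells left out. Over all rule-meeting cells Gzma stood at 199 CPM (196 to 203) in the knockout-labelled library, against 121 CPM (118 to 124) in the WT library, a ratio of 1.65 (1.59 to 1.71). Among members themselves the levels lay closer, at 315 CPM (309 to 321) in knockout-labelled and 287 CPM (279 to 296) in WT members, as a rule of at least 1 UMI requires some Gzma of each. Single cells reached 34 Gzma UMIs in the knockout-labelled and 62 in the WT library.

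Gzma was also higher in the knockout-labelled CD25+ library in cells with Cd4 and Trac UMIs. Cells with Foxp3, Cd4 and Trac UMIs held Gzma in 12.3% of 73 knockout-labelled cells (5.80 to 22.1), against 5.19% of 154 WT cells (2.27 to 9.98), at median depths of 5859 and 5010.5 UMIs and levels of 45.4 and 16.6 CPM. The intervals of these shares overlapped. After thinning the shares were 4.11% of 73 knockout-labelled and 0.658% of 152 WT cells. Cells with Cd4, Trac and Il2ra UMIs held it in 21.8% of 165 knockout-labelled and 9.17% of 229 WT cells, or 6.13% and 1.75% after thinning, at 58.5 and 21.2 CPM, a ratio of 2.76 (1.90 to 4.08). Rule-meeting cells lay above these levels in both libraries. The CD25- libraries went the other way, with a ratio of knockout-labelled over WT of 0.850 (0.723 to 0.998). The part that free RNA takes in the difference between the libraries was not tested.

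Whether a cell was a member depended on how deeply it was sampled. Members had medians of 7239 UMIs in the knockout-labelled and 7122 in the WT library, and Gzma-zero cells 4757 and 5419. Over 10 classes of UMIs per cell, the share with Gzma was 11.6% in the shallowest and 78.5% in the deepest class of the knockout-labelled library, and 5.84% and 53.5% in those of the WT library. The level, which is already relative to depth, went the same way, at 71.4 CPM in the shallowest and 222 CPM in the deepest knockout-labelled class and 31.5 and 133 CPM in those classes of the WT library, so deeper cells held more Gzma per UMI as well. Scrublet placed 9.39% of knockout-labelled and 8.56% of WT members among the likely doublets, compared with 6.50% and 6.46% of knockout-labelled and WT Gzma-zero cells.

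**Figure D1:**
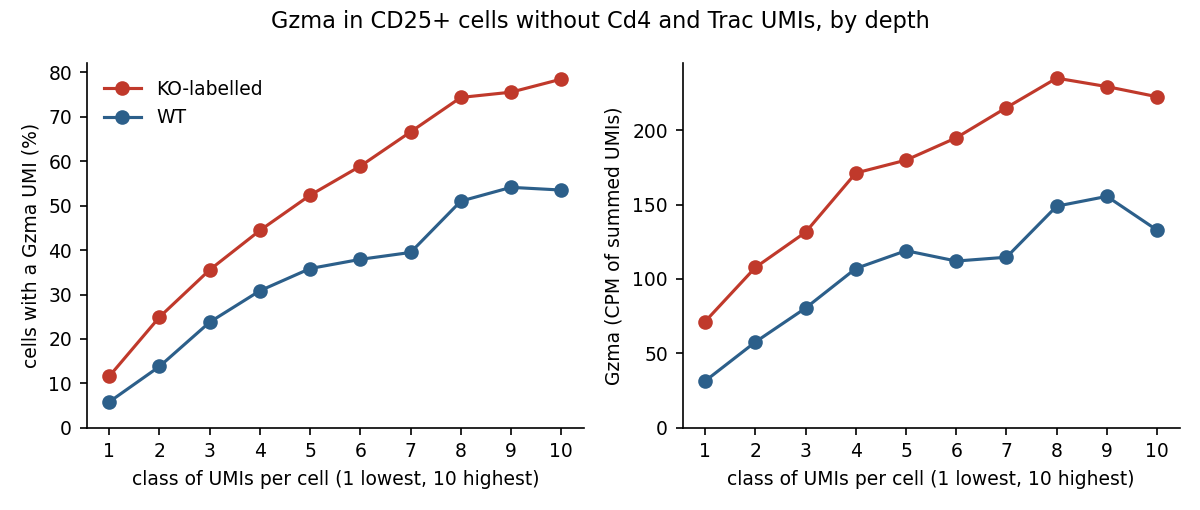
Share of rule-meeting cells with a Gzma UMI (left, %) and Gzma level (right, CPM of summed UMIs) by class of UMIs per cell, from the shallowest (1) to the deepest (10), in classes of nearly equal cell number. Both rise over most of the range, from 11.6% and 71.4 CPM in class 1 of the knockout-labelled library, and the knockout-labelled line lies above the WT line in all 10 classes.

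Gzma counts were somewhat more uneven over cells than a common level would give. At 1500 UMIs per cell, its variance over cells was 1.28 times its mean in the knockout-labelled and 1.65 times in the WT library, where counts drawn at 1 common level would give 1. The share of cells with Gzma was 21.5% in the knockout-labelled library, where such a common level would give 23.8%, and 12.5% in the WT library, where it would give 15.2%. For Tnfrsf4, a Treg gene found in 1.39% and 2.23% of these thinned cells, the variance was 4.60 and 3.46 times the mean in the knockout-labelled and WT libraries, and for Rag1, found in 36.0% and 37.8%, 1.31 times in both. At such low counts per cell, these values do not tell a graded level from a mixture of cells with and without Gzma. Of the members, 1707 knockout-labelled and 1023 WT cells held exactly 1 Gzma UMI, 1678 and 784 held 2 to 4, and 576 and 202 held 5 or more.

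Gzma was also found in cells just outside each threshold of the rule, at levels that differed by threshold and library. Cells with 1 Cd4 UMI that otherwise met the rule held Gzma at 131 CPM in 208 knockout-labelled cells, against 98.9 CPM in 211 WT cells. Those with 1 Trac UMI held 179 CPM in the knockout-labelled library (122 cells) and 22.6 CPM in the WT library (121 cells). With Il2ra at 1 UMI, just inside the rule, Gzma was at 179 CPM in knockout-labelled and 109 CPM in WT cells, and with Il2ra at 0, just outside, at 122 and 63.5 CPM. With Mki67, a proliferation marker, at 4 UMIs Gzma was at 191 CPM in 98 knockout-labelled and 113 CPM in 33 WT cells. With Mki67 at 5 it was at 198 CPM in 77 knockout-labelled and 255 CPM in 22 WT cells. All excluded cells with Mki67 of 5 or more together held 252 CPM in the knockout-labelled library, against 201 CPM in the WT library.

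Members were spread over nearly all clusters of the rule-meeting cells, which were clustered without Gzma and the other genes of the rule and are called by number. Clusters 1 and 5 held mostly WT cells (2617 of 2648 and 1281 of 1308) and clusters 2 and 3 mostly knockout-labelled cells (2140 of 2180 and 2104 of 2170), so these 4 may each be a library rather than a cell state. Members took 48.2% of the knockout-labelled cells in cluster 2 and 59.5% in cluster 3, and 34.2% of the WT cells in cluster 1 and 49.5% in cluster 5. The highest share was in cluster 13, led by the mitotic genes Ccnb2, Cenpa and Ube2c, with 94.1% of 68 knockout-labelled cells (85.6 to 98.4), against 71.4% of 21 WT cells (47.8 to 88.7). Cluster 6, led by DNA replication genes, had 75.3% of 1007 knockout-labelled and 55.8% of 292 WT cells. Cluster 8, led by Ifit1, Oasl2 and other interferon-induced genes, had 70.3% of 435 and 47.4% of 97.

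The lowest shares lay elsewhere. Cluster 9, led by Tnfrsf4, Cd2 and Gimap3 with Foxp3 at 394 CPM, had Gzma in 12.7% of 158 knockout-labelled cells (7.91 to 18.9), against 4.65% of 215 WT cells (2.25 to 8.39). Cluster 4, led by histone and immediate early genes at a median of 2610 UMIs per cell, had 15.1% of 834 knockout-labelled and 8.47% of 649 WT cells. Cluster 12, at a median of 2240 UMIs, had 7.59% of 79 and 3.64% of 55. Cluster 10, led by genes of early progenitors and myeloid cells such as Cpa3, Lyl1 and Tyrobp, had 42.0% of 69 knockout-labelled and 21.1% of 114 WT cells despite the highest median depth of the 13 clusters, 14482 UMIs. In each of the 13 clusters the share was higher among knockout-labelled cells. In cluster 2 the values were 48.2% and 47.5%, and the intervals overlapped in clusters 1, 2, 5, 9, 12 and 13.

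**Figure D2:**
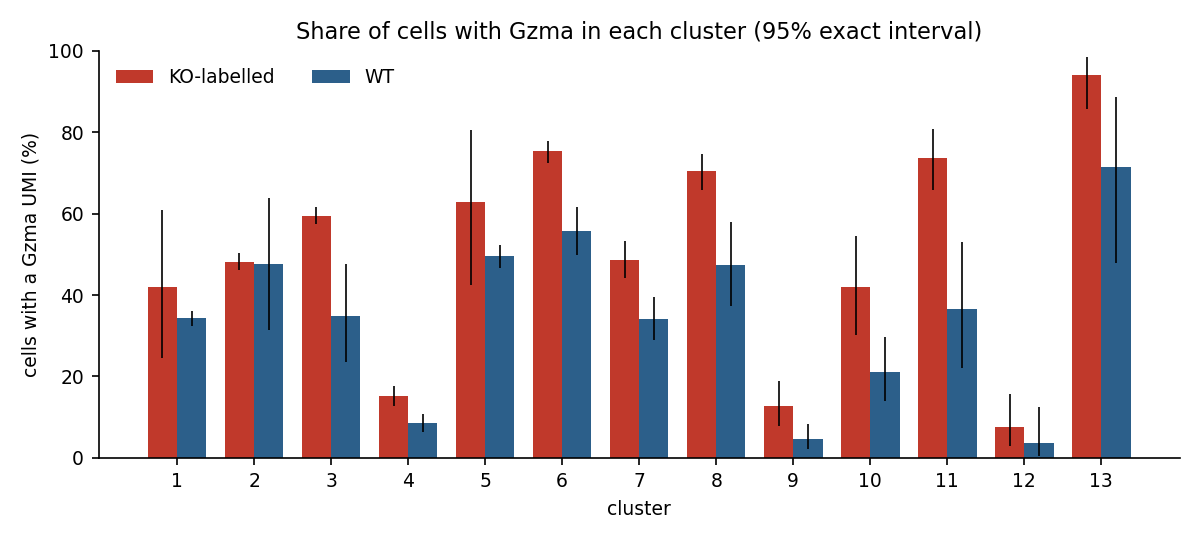
Percentage of rule-meeting cells with at least 1 Gzma UMI in each of 13 clusters, with knockout-labelled cells left and WT cells right and 95% exact intervals as lines. Cluster 13 is highest at 94.1% and 71.4%, clusters 4, 9 and 12 are lowest, and the knockout-labelled bar is the higher one in every cluster.

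Set against Gzma-zero cells, members held more transcripts of some DNA replication genes and fewer of a few genes of Tregs and mature T cells, led by Tnfrsf4. A gene was counted where its CPM differed by at least 1.5-fold and reached 20 in either group. In the knockout-labelled library 30 of 7073 genes were higher in members (0.424%) and 66 lower (0.933%), together 1.36%, and in the WT library 2 of 7026 were higher (0.0285%) and 40 lower (0.569%), together 0.598%. Of 6834 genes that reached 20 CPM in both libraries, 2 were higher (0.0293%) and 19 lower (0.278%) in both. The median log2 ratio over all genes was -0.08 in the knockout-labelled and -0.05 in the WT library. Centred on that median, 49 were higher and 40 lower in the knockout-labelled library, and on a total without mitochondrial, ribosomal protein and receptor segment genes 51 were higher and 71 lower, so the balance of directions depends on the scaling.

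The 2 genes higher in both libraries serve DNA synthesis. Pclaf, which encodes a PCNA-associated replication factor, was at 131 CPM in knockout-labelled members and 59.6 CPM in knockout-labelled Gzma-zero cells, and at 68.8 CPM in WT members and 35.1 CPM in WT Gzma-zero cells. The ratios were 2.20 (2.06 to 2.35) in the knockout-labelled and 1.96 (1.79 to 2.15) in the WT library; with Gzma-zero cells weighted to the members' UMIs per cell they were 1.23 and 1.35, and weighted to the members' clusters 1.24 and 1.37, under 1.5-fold in both. Rrm2, a subunit of the enzyme that makes deoxyribonucleotides, had ratios of 1.81 (1.66 to 1.98) and 1.64 (1.46 to 1.83) in the knockout-labelled and WT libraries. Tk1, Chek1, Tyms, Clspn, Cenpw, E2f2, Syce2 and Dnph1 followed with log2 ratios of 0.40 to 0.71 in the knockout-labelled and 0.40 to 0.58 in the WT library; of these, Tk1, Cenpw, Clspn, Tyms and Chek1 passed 1.5-fold in the knockout-labelled library. Of the 18 proliferation genes listed, 8 of the 14 at 20 CPM were at least 1.5-fold higher in knockout-labelled members (median log2 ratio 0.60) and 2 of 11 in WT members (median 0.33), and 0 were lower. The rule itself capped Mki67, and cells of clusters 6 and 13, whose leading genes these are, were deep, at medians of 11430 and 11426 UMIs.

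Beside these and Plac8, Lgals1 and Alox5ap stood higher in members. Lgals1, which encodes the secreted lectin galectin-1, was at 511 CPM in members and 277 CPM in Gzma-zero cells of the knockout-labelled library and at 602 CPM in members and 447 CPM in Gzma-zero cells of the WT library, ratios of 1.84 (1.79 to 1.90) and 1.34 (1.31 to 1.38). Alox5ap, needed for leukotriene synthesis, had log2 ratios of 0.49 and 0.40 in the knockout-labelled and WT libraries. Only the knockout-labelled ratio of Lgals1 passed 1.5-fold, and it did not when weighted by depth (1.36, and 1.10 in the WT library) or by cluster (1.26 and 1.04). Weighted by depth, Alox5ap had ratios of 1.05 and 1.08 in the knockout-labelled and WT libraries.

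The genes lower in members were led by Tnfrsf4, which encodes the costimulatory receptor OX40. It was at 2.67 CPM in members and 34.9 CPM in Gzma-zero cells of the knockout-labelled library, 13.1-fold lower (10.5 to 16.5), and at 2.31 CPM in members and 39.3 CPM in Gzma-zero cells of the WT library, 17.0-fold lower (12.3 to 24.2). Gimap3, a lymphocyte survival GTPase, was 10.7-fold lower in knockout-labelled and 8.29-fold lower in WT members. Cd2, an adhesion receptor of mature T cells, was 7.87-fold lower in knockout-labelled and 10.4-fold lower in WT members, and Klf2, the factor that drives thymic exit, 6.77-fold lower in knockout-labelled members and lower by 2.81 on the log2 scale in WT members. Samhd1, Cd52, Cd5, Egr1, Cd69, Rel, Olfr1507 and Ifi27l2a were lower in both as well, with log2 ratios of -0.78 to -2.64 in the knockout-labelled and -0.74 to -3.32 in the WT library. These genes mark mature or recently stimulated T cells, apart from the interferon-induced Ifi27l2a, the odorant receptor gene Olfr1507 and Samhd1, which encodes an enzyme that degrades deoxyribonucleotides.

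Tnfrsf4 and Cd2 lay mostly in few cells, whereas Egr1 and Cd69 were among the leading genes of cluster 4 and Olfr1507 of cluster 1. Tnfrsf4 was at 864 CPM in cluster 9 and at 0 to 4.27 CPM in the other 12 clusters, and Cd2 at 729 CPM in cluster 9 and at most 5.21 CPM elsewhere. Cluster 9 held 20 of the knockout-labelled and 10 of the WT members. With doublets removed, the log2 ratios in the knockout-labelled and WT libraries were -4.50 and -4.86 for Tnfrsf4, -4.43 and -4.24 for Gimap3, -3.57 and -5.07 for Cd2 and -3.07 and -4.05 for Samhd1, further from 0 than with them. With Gzma-zero cells weighted to the members' distribution over clusters, the log2 ratio of Tnfrsf4 was -0.96 in the knockout-labelled and -0.90 in the WT library, in place of -3.71 and -4.09, and that of Cd2 was -0.40 and -0.15. Under that weighting 5 genes were higher and 2 lower in the knockout-labelled library and 0 higher and 1 lower in the WT library. With Gzma-zero cells weighted to the members' UMIs per cell, 9 were higher and 20 lower in the knockout-labelled and 1 higher and 29 lower in the WT library, and Rrm2 had log2 ratios of 0.03 and 0.13.

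**Figure D3:**
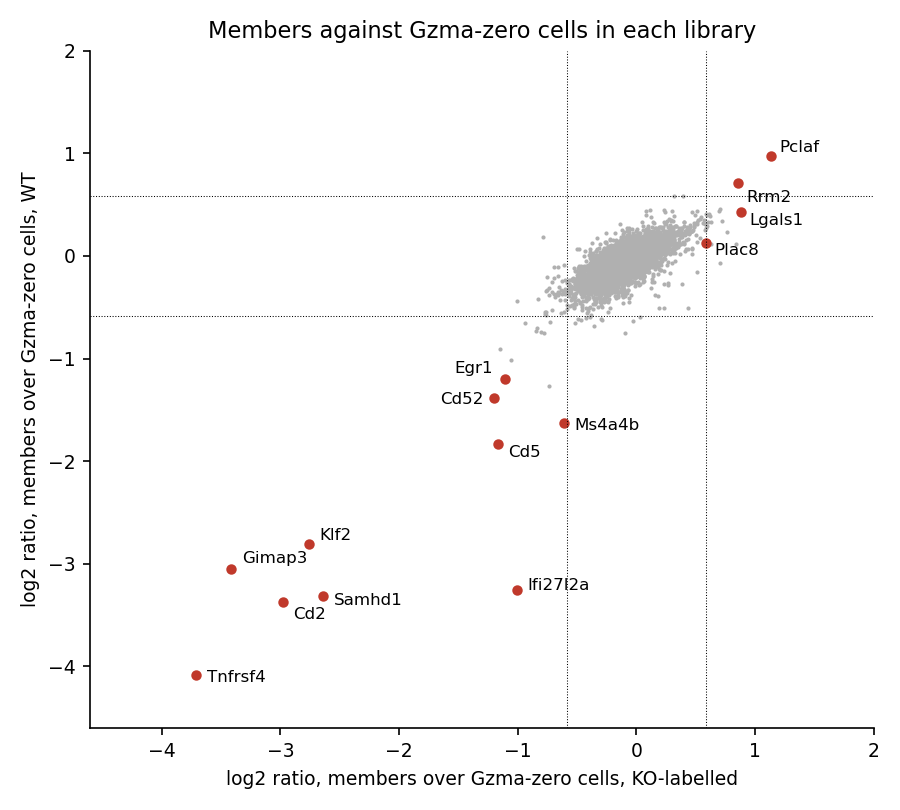
Log2 ratio of CPM in members over Gzma-zero cells, knockout-labelled library on the x axis and WT library on the y axis, for 6834 genes at 20 CPM or more in both, with 14 genes marked in red and dotted lines at 1.5-fold. Most genes lie near 0 on both axes, Pclaf and Rrm2 pass 1.5-fold upward in both, and Tnfrsf4, Gimap3, Cd2, Klf2 and Samhd1 lie beyond -2 on both.

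By role, the early T cell genes had a median ratio of members over Gzma-zero cells close to that over all genes. For the pre-T cell receptor, recombination and Notch list of 18 genes, the median log2 ratio was -0.14 in the knockout-labelled and -0.07 in the WT library. Over all genes it was -0.08 and -0.05. Of the list, 16 genes reached 20 CPM and 0 passed 1.5-fold in either direction in either library. That count is near the share over all genes, 1.36% in the knockout-labelled and 0.598% in the WT library. Notch3, a Notch receptor gene, was lowest relative to Gzma-zero cells in the knockout-labelled library, at 147 CPM in members and 215 CPM in Gzma-zero cells of the knockout-labelled library and at 170 and 214 CPM in those of the WT library. The Notch target Hes1, lowest in the WT library, had log2 ratios of -0.40 and -0.41 in the knockout-labelled and WT libraries. Of the beta selection list, 5 of 14 genes in the knockout-labelled and 4 of 13 in the WT library were lower in members, Cd2, Cd5, Egr1 and Cd69 in both and Ikzf3 in the knockout-labelled one, whereas Trbc1 and Trbc2, the nearly identical beta chain constant genes between which reads can be split wrongly, had log2 ratios of 0.48 and 0.51 in the knockout-labelled and 0.32 and 0.31 in the WT library. Of the T cell receptor response list, 4 of 11 genes were lower in each library and 0 higher. Of the Treg list, 2 of 7 genes in the knockout-labelled and 1 of 7 in the WT library were lower, with summed levels of 413 CPM in members and 608 CPM in Gzma-zero cells of the knockout-labelled library and 409 and 607 CPM in those of the WT library. Of the mature thymocyte and egress list, 2 of 6 and 3 of 6 genes were lower in the knockout-labelled and WT libraries.

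The gamma and delta constant genes were somewhat higher in members. Trdc, the delta chain constant gene, was at 132 CPM in members and 97.2 CPM in Gzma-zero cells of the knockout-labelled library and at 137 and 115 CPM in those of the WT library. Tcrg-C1, a gamma chain constant gene, had a ratio of 1.55 (1.49 to 1.61) in the knockout-labelled and 1.26 (1.22 to 1.29) in the WT library. Tcrg-C2, whose sequence is close to that of Tcrg-C1, had log2 ratios of 0.03 and -0.01, so the family did not move together.

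Many genes differed more as the number of Gzma UMIs per cell went up. Between cells with 5 or more Gzma UMIs and those with 0, 202 of 7149 genes were higher (2.83%) and 705 lower (9.86%) in the knockout-labelled library, and 159 of 7150 higher (2.22%) and 498 lower (6.97%) in the WT library. In both libraries, 95 of 6905 were higher (1.38%) and 283 lower (4.1%). The median UMIs per cell in the classes with 0, 1, 2 to 4 and 5 or more Gzma UMIs were 4757, 6219, 7629 and 10796 in the knockout-labelled and 5419, 6512, 7454.5 and 9598.5 in the WT library, so the classes differ in depth. The median log2 ratio over all genes was -0.14 in the knockout-labelled and -0.10 in the WT library.

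Before any weighting for depth, replication and mitotic genes were higher in the cells with most Gzma. Of the proliferation list, 15 of 15 genes in the knockout-labelled and 11 of 13 in the WT library were at least 1.5-fold higher at 5 or more Gzma UMIs. Ccnb2, a mitotic cyclin, was at 4.49, 9.23, 11.99 and 35.4 CPM over the 4 knockout-labelled classes in ascending order and at 3.89, 3.47, 8.91 and 21.9 CPM over the WT classes. Plac8 was at 587, 669, 891 and 1233 CPM over the knockout-labelled classes and at 657, 599, 766 and 983 CPM over the WT classes. Lgals1 was at 277, 393, 505 and 727 CPM over the knockout-labelled and at 447, 530, 644 and 713 CPM over the WT classes. Tcrg-C1 was at 187, 206, 271 and 473 CPM over the knockout-labelled and at 474, 493, 610 and 895 CPM over the WT classes. Each of these 4 was highest at 5 or more Gzma UMIs in both libraries, and Ccnb2 and Plac8 dipped at 1 UMI in the WT library.

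Several genes of the pre-T cell receptor stage were lower there, whereas Dntt and Tcf7 of the same list were higher. Ptcra was at 688, 690, 560 and 338 CPM over the knockout-labelled classes and at 653, 671, 583 and 383 CPM over the WT classes. Notch3 was at 215, 190, 142 and 82.9 CPM over the knockout-labelled and at 214, 206, 157 and 86.7 CPM over the WT classes, so that cells with most Gzma had 0.385 and 0.406 of the level in Gzma-zero cells. Of the pre-T cell receptor, recombination and Notch list, 8 of 16 genes were lower in the knockout-labelled library, Rag1 and Rag2 included, and 4 of 16 in the WT library, namely Ptcra, Notch3, Hes1 and Dtx1. Between 0 and 5 or more Gzma UMIs, Dntt went from 904 to 1271 CPM in the knockout-labelled and from 1409 to 1657 CPM in the WT library. Tcf7 went from 433 to 610 CPM and from 574 to 802 CPM in these libraries. Both genes stayed under 1.5-fold. Jun, an immediate early gene that also responds to cell dissociation, was at 528, 363, 277 and 216 CPM over the knockout-labelled and at 708, 524, 391 and 274 CPM over the WT classes. Atoh8 and Pdgfa were lower at 5 or more Gzma UMIs by 1.86 and 2.02 on the log2 scale in the knockout-labelled and by 1.88 and 1.44 in the WT library.

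With Gzma-zero cells weighted to the depth of the cells with 5 or more Gzma UMIs, the counts were 80 higher and 95 lower in the knockout-labelled and 53 higher and 110 lower in the WT library. The proliferation list then had 3 of 15 and 1 of 13 genes higher in the knockout-labelled and WT libraries, and the pre-T cell receptor list 0 lower in both. The median log2 ratio of the proliferation list was then -0.01 in the knockout-labelled and -0.10 in the WT library (1.10 and 0.77 before). Among replication genes, Pclaf then had 0.10 and 0.17 (1.63 and 1.52 before) and Rrm2 -0.13 and 0.005 (1.36 and 1.39 before) in these libraries. In the knockout-labelled and WT libraries, log2 ratios were then 1.06 and 1.23 for Ccnb2 (2.98 and 2.49 before), 0.62 and 0.41 for Tcrg-C1 (1.34 and 0.92 before) and -1.02 and -1.82 for Egr1 (-1.43 and -2.03 before), of which Tcrg-C1 in the WT library was under 1.5-fold. Tnfrsf4 had -2.28 and -2.84 (-4.46 and -4.14 before) and no longer reached 20 CPM. Lgals1 had 0.62 and 0.10 (1.39 and 0.67 before) and Jun -0.05 and -0.60 (-1.29 and -1.37 before), so that the WT call of Lgals1 and the knockout-labelled call of Jun were lost. Plac8 had 0.17 and -0.05, Notch3 -0.18 and -0.42 and Ptcra -0.06 and -0.12, all under 1.5-fold. Dntt had 0.57 and 0.31 and Tcf7 0.12 and 0.20, also under 1.5-fold. Cpa3, a mast cell protease gene also expressed by early progenitors, turned from 1.45 to -0.62 in the knockout-labelled and from 0.41 to -0.90 in the WT library. Ifit1, an interferon-induced gene, had log2 ratios of 2.22 and 2.11 after weighting and 1.34 and 1.04 before. In the WT library it was at 18.8 CPM at 5 or more Gzma UMIs, under the 20 CPM minimum, so only its knockout-labelled ratio was counted. This weighting was added after the data had been seen.

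**Figure D4:**
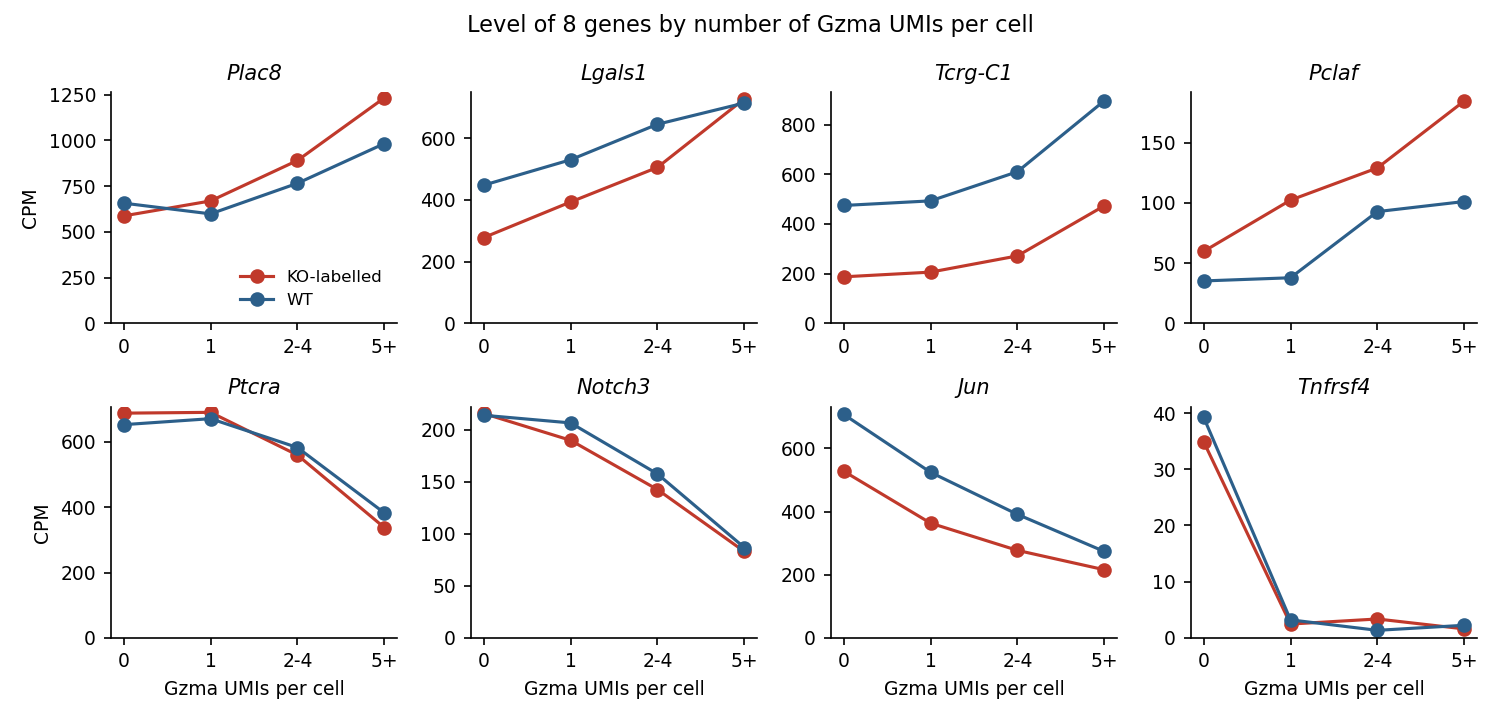
Level (CPM of summed UMIs) of 8 genes over cells with 0, 1, 2 to 4 and 5 or more Gzma UMIs in the knockout-labelled (red) and WT (blue) libraries. The levels are not weighted for depth. Plac8, Lgals1, Tcrg-C1 and Pclaf are highest and Ptcra, Notch3 and Jun lowest at 5 or more Gzma UMIs in both libraries, while Tnfrsf4 is near 0 in every class but Gzma-zero cells.

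Between the libraries, knockout-labelled members held more transcripts of interferon-induced, nonclassical major histocompatibility complex (MHC) and proliferation genes. They held fewer of the heat shock gene Hspa8, the surface protein gene Thy1 and the gamma constant genes. Of 6958 genes, 119 were higher (1.71%) and 111 lower (1.6%), together 3.31%, in knockout-labelled than in WT members, with a median log2 ratio of -0.06. Among Gzma-zero cells, 108 of 7181 were higher (1.5%) and 118 lower (1.64%), together 3.15%. Centred on the median, the members gave 143 higher and 86 lower, and on the reduced total members gave 188 and 106 and Gzma-zero cells 167 and 118. The 2 sets of cells share their libraries, so they are given side by side: 59 of the higher genes were in both lists, 49.6% of the members' list and 54.6% of the Gzma-zero list, and 73 of the lower genes were, 65.8% and 61.9%.

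H2-Q6 and H2-Q7, neighbouring nonclassical MHC class I genes on chromosome 17 whose near-identical copies can split or trade reads, were both among the 3 genes highest relative to WT, with Sorl1 between them. H2-Q7 was at 143 CPM in knockout-labelled and 18.6 CPM in WT members, a ratio of 7.67 (6.83 to 8.64), and at 153 CPM in knockout-labelled and 31.3 CPM in WT Gzma-zero cells. H2-Q6 was at 24.2 CPM in knockout-labelled and 1.03 CPM in WT members, a ratio of 23.5 (14.6 to 40.5). Of the MHC class I list 4 of 10 genes were higher in knockout-labelled members, with a median log2 ratio of 0.42, against 4 of 11 and 0.41 in Gzma-zero cells. Sorl1, a sorting receptor gene, was 8.54-fold (6.30 to 11.8) and Mid1, an X-linked gene, 6.15-fold (4.90 to 7.83) higher in knockout-labelled members.

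Interferon-induced genes were higher in knockout-labelled members. Of the interferon list, 7 of 14 genes at 20 CPM were higher and 0 lower, with a median log2 ratio of 0.66, while 5 of 13 were higher in Gzma-zero cells with a median of 0.19. Usp18, which dampens interferon signalling, was at 40.6 CPM in knockout-labelled and 10.5 CPM in WT members, a ratio of 3.87 (3.30 to 4.56). Ifit1 was at 27.2 and 7.77 CPM in knockout-labelled and WT members. Ifi27l2a showed the largest gap between the sets of cells, at 45.2 CPM in knockout-labelled and 8.38 CPM in WT members, a ratio of 5.39 (4.52 to 6.46), and at 90.6 CPM in knockout-labelled and 80.1 CPM in WT Gzma-zero cells, a ratio of 1.13 (1.06 to 1.21). Ifi27l2a was also among the leading genes of cluster 9, with Tnfrsf4, Cd2 and Foxp3. In that cluster 20 of 158 knockout-labelled and 10 of 215 WT cells were members. The part of cluster 9 in this gap was not tested. Ly6e and Bst2, 2 abundant interferon-induced genes, had log2 ratios of -0.20 and -0.13 in members, so the list did not move as one.

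Genes of the proliferation list were higher in knockout-labelled members too. Ube2c and Birc5 had the highest ratios of the list, and Mcm6 and Stmn1 the lowest. Of the proliferation list, 6 of 14 genes were higher and 0 lower, with a median log2 ratio of 0.54, and in Gzma-zero cells 2 of 11 were higher with a median of 0.22. Ube2c was at 21.1 CPM in knockout-labelled and 6.13 CPM in WT members, a ratio of 3.44 (2.79 to 4.28), and at 6.96 CPM in knockout-labelled and 6.71 CPM in WT Gzma-zero cells. Clusters 6, 11 and 13, led by replication, histone and mitotic genes, held 19.1%, 2.63% and 1.62% of knockout-labelled and 8.11%, 0.747% and 0.747% of WT members.

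Among the lower genes, Hspa8, a constitutive heat shock chaperone gene, was at 487 CPM in knockout-labelled and 2516 CPM in WT members, 5.16-fold lower (5.07 to 5.26), and 4.67-fold lower in knockout-labelled Gzma-zero cells. Of the heat shock and dissociation list, 4 of 11 genes were lower in knockout-labelled members, with a median log2 ratio of -0.49, and 4 of 11 in Gzma-zero cells. Thy1, a pan-T cell surface protein gene, was at 235 CPM in knockout-labelled and 834 CPM in WT members, 3.54-fold lower (3.44 to 3.64). Tcrg-C1 was at 290 CPM in knockout-labelled and 595 CPM in WT members and Tcrg-C2 at 175 and 447 CPM, while Trdc stood at 132 and 137 CPM. Ccr9, the chemokine receptor gene of thymic homing, was at 39.2 CPM in knockout-labelled and 87.9 CPM in WT members. Scin, Scn4b, Kremen1, Emid1, Maged1, Hist1h2ac, Ptms and Ccdc88a were lower as well, by 1.39 to 1.96 on the log2 scale.

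Gzma-zero cells differed in the same direction for all 20 genes named for this comparison, with log2 ratios of 0.18 to 3.32 for the higher and -0.98 to -2.22 for the lower ones. Dissociation-responsive genes, the gamma constant genes and the clusters that hold 1 library each thus separate the libraries with and without Gzma, and their part in the higher share of Gzma-positive cells was not tested.

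**Figure D5:**
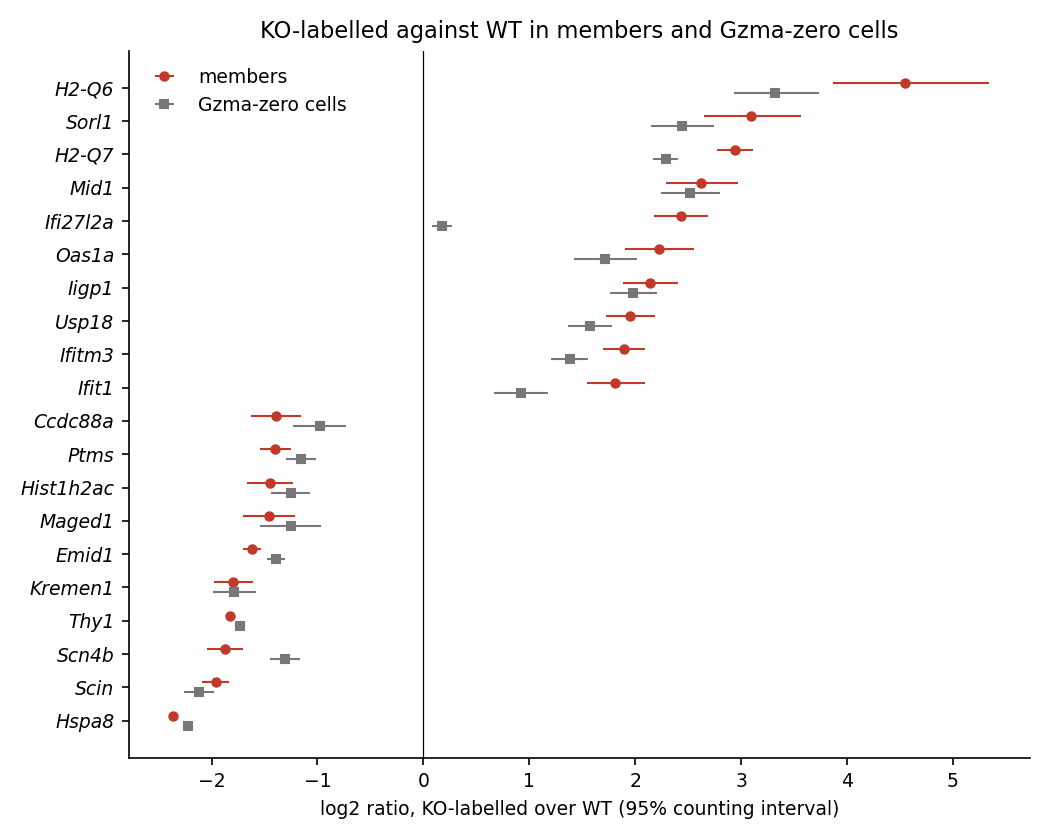
Log2 ratio of CPM, knockout-labelled over WT, of the 10 highest and 10 lowest named genes in members (red circles) and Gzma-zero cells (grey squares), with 95% counting intervals as lines. All 20 genes lie on the same side of 0 in both sets of cells, and Ifi27l2a is furthest apart, at 2.43 in members and 0.18 in Gzma-zero cells.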

How the data were processed

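Single-cell transcripts were counted in 4 thymocyte libraries, 2 of which supplied the cells described. The authors deposited whole-number UMI counts per gene and barcode, without normalization. The genome build was mm10, per the submitters' processing notes, which name Cell Ranger 6.2.1, whereas the file headers name 6.1.2. Annotation and cell-calling rule were not given in the sources used here. Per the labels, protocols name CD73 in the gates but CD74 among the stains.

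Barcodes with at least 500 genes and under 10% mitochondrial UMIs were kept. Doublets were scored with Scrublet (scanpy 1.11.5), and the highest scores were flagged up to 0.8% per 1000 barcodes, without removal. UMIs were summed over cells and scaled to CPM. Ratios have exact conditional binomial, levels exact Poisson and shares Clopper-Pearson intervals at 95% (scipy 1.17.1). With 1 library per group no test was run. The count statistics were tested on simulated data. Rule-meeting cells were clustered with Leiden (resolution 1, 2000 variable genes, 30 principal components, 15 neighbours) without the 5 rule genes, Pdcd1 and ribosomal protein, mitochondrial, sex-linked and receptor segment genes.

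The members and gene lists were chosen with earlier results of these data known. Genes named against Gzma-zero cells were the 12 highest and 12 lowest by the library with the smaller change, with intervals excluding 1 and the same direction in both libraries; between libraries, the 10 highest and 10 lowest; both needed 20 CPM and 50 UMIs and left out the 5 rule genes, receptor segments, Y-linked genes, Xist, hemoglobin, ribosomal protein and mitochondrial genes and models with no name. Fixed markers and the 2 extreme members of each list were added, and other genes were named after their values were seen. All 162 of 162 identifiers looked up were found in GENCODE vM21 (GRCm38). Alternatives were other cell filters, Gzma, Mki67 and CPM minimums, doublet removal, thinning to 1500 UMIs, other scaling and weighting, and Leiden resolutions of 0.5 and 1.5.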

Additional observations from a re-analysis of the deposited data

Results flagged for a closer look

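For 3 genes the difference between members and Gzma-zero cells pointed in opposite directions in the 2 libraries, each with a counting interval that excluded no difference; the difference between the libraries itself was not tested. Rag1 had a log2 ratio of -0.20 in the knockout-labelled library and 0.09 in the WT library, from 285 CPM in members and 326 CPM in Gzma-zero cells of the knockout-labelled library and 355 and 334 CPM in those of the WT library. Cpa3 had 0.43 in the knockout-labelled and -0.51 in the WT library, and Itga4, an integrin chain gene, had 0.11 and -0.11. These ratios are not weighted for depth. In the separate comparison of 5 or more Gzma UMIs against 0, weighted by depth, each gene had the same sign in both libraries. The log2 ratios there were 0.06 and 0.25 for Rag1, -0.62 and -0.90 for Cpa3 and -0.09 and -0.17 for Itga4 (knockout-labelled and WT).

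Gzma was also present in the CD25- libraries, which the comparisons do not use. It stood at 22.3 CPM (19.7 to 25.2) in the knockout-labelled and 26.3 CPM (23.7 to 29.1) in the WT CD25- library, a ratio of 0.850 (0.723 to 0.998). These 258 and 379 UMIs came from 28 of 1767 and 21 of 3118 kept cells (knockout-labelled and WT), or 1.58% and 0.674%.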

How the results depend on the processing

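No paired analysis was possible because each group is 1 library and the labels carry no replicate numbers. The share of members among rule-meeting cells of the knockout-labelled and WT libraries was 59.3% and 39.1% under the stricter cell filter (at least 1000 genes, under 5% mitochondrial UMIs), 29.8% and 17.0% with at least 2 Gzma UMIs, 21.8% and 12.2% with thinning before the rule, and 50.3% in the knockout-labelled library with Mki67 at 0. It stayed higher in the knockout-labelled library in each.

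Genes higher and lower in members than in Gzma-zero cells of the knockout-labelled library numbered 72 and 173 with at least 2 Gzma UMIs, 49 and 40 centred on the median gene, 91 and 230 at a minimum of 5 CPM, 10 and 21 at 50 CPM, 9 and 20 weighted by depth and 5 and 2 weighted by cluster. There, 31 were lower under the stricter filter, 109 with thinning and 190 with cells weighted equally, and 12 were higher with Mki67 at 0 and 51 on a total without mitochondrial, ribosomal protein and receptor segment genes. In the WT library the counts were 21 and 91 with at least 2 Gzma UMIs, 89 and 332 with thinning, 4 and 113 with cells weighted equally, 19 and 172 at 5 CPM, 1 and 10 at 50 CPM and 0 and 1 weighted by cluster. There, 4 were higher under the stricter filter and when centred on the median gene, 0 with Mki67 at 0, 8 on the reduced total and 1 weighted by depth. Knockout-labelled against WT members gave 436 higher and 402 lower with thinning, 370 and 263 at 5 CPM, 45 and 56 at 50 CPM, and 188 higher on the reduced total.

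Weighted by depth, cells with 5 or more Gzma UMIs against 0 gave 80 higher and 95 lower in the knockout-labelled and 53 and 110 in the WT library. Log2 ratios of members over Gzma-zero cells in the knockout-labelled library changed sign for Tk1 (-0.0041) and Chek1 (-0.058) with thinning, for Chek1 (-0.015), Clspn (-0.14), Tyms (-0.038), Olfr1507 (0.089), Ms4a4b (0.15) and Klf6 (0.073) weighted by depth and for Tyms (-0.019), Ifi27l2a (0.17) and Ms4a4b (0.38) weighted by cluster, and in the WT library for Gimap3 (0.035) weighted by cluster. The causes were not tested. Removing doublets moved none of the counts of genes or shares of members by more than the limits used but moved 23 single log2 ratios, those of Tnfrsf4, Gimap3 and Cd2 by over 1.5 times in both libraries and that of Samhd1 in the WT library. The other Leiden resolutions moved the spread of the share over clusters by less than those limits.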

Other observations

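A pair of transcripts outside the named set, picked after their values were seen, gave many UMIs in knockout-labelled members and 0 or 1 in WT members. Zbtb16, which encodes PLZF, the factor of innate-like T cells, gave 164 UMIs in 129 of 3961 knockout-labelled members (4.92 CPM, 4.20 to 5.73) and 0 UMIs in 2009 WT members, where 3 counts would be 0.182 CPM. Set against the level of those 3 counts, the level in knockout-labelled members was 27.0-fold higher. This is not a lower bound, since the counting interval of the WT members reached 0.224 CPM. Gzma-zero cells held 73 UMIs (3.77 CPM) in the knockout-labelled and 7 UMIs (0.309 CPM) in the WT library. Xcl1, a chemokine gene of NK cells and innate-like lymphocytes, gave 168 UMIs in 16 knockout-labelled members, 157 of them in 5 cells, and 1 UMI in WT members, while Gzma-zero cells held 73 and 88 UMIs in the knockout-labelled and WT libraries. Over the whole CD25+ libraries, Zbtb16 was found in 244 knockout-labelled and 8 WT cells and Xcl1 in 183 and 159. Neither gene reached 20 CPM, and with 1 library per genotype neither difference has a replicate check.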
